A study of Mus musculus with 7 samples.

Results

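RNA was sequenced from 7 bulk subcutaneous (s/c) tumors of mouse pancreatic ductal adenocarcinoma (PDA), and the genes described here are those of 3 families that build and break the matrix between cells: the matrix metalloproteinases (*Mmp*), the ADAMTS proteases (*Adamts*) and the tissue inhibitors of metalloproteinases (*Timp*). They were chosen by symbol alone, which gave 44 of the 38026 rows of the expression table: 22 *Mmp*, 18 *Adamts* and 4 *Timp* genes. All tumors grew for 2 wk from the 1242 KPC line in the right flank of untreated C57BL/6 mice, which the study bought at 6 wk of age and housed for 2 wk before use. The line came from a single pancreatic tumor of a mouse whose alleles included LSL-Trp53 R172H/+ and Pdx1-Cre, in which a promoter of pancreatic epithelium drives Cre. In both groups the cells had received a lentivirus with SpCas9 and a guide RNA and had been selected with puromycin. The guide was scrambled in the 4 tumors labelled sgScramble (replicates 1 to 4) and directed against *Krt19*, an epithelial keratin, in the 3 labelled sgKrt19 (replicates 5, 6 and 8). Which of the guides against *Krt19* was used, and whether these tumors grew from polyclonal cells or from a clone, is not given in the sources used here. Each library is 1 tumor per the labels.

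Mmp proteins are zinc-dependent enzymes made as inactive precursors, and together they can cleave most proteins of the extracellular matrix, including fibrillar collagen, basement membrane and elastin. ADAMTS proteins are secreted relatives that carry thrombospondin repeats and have narrower substrates, such as the proteoglycans versican and aggrecan, procollagen, or cartilage oligomeric matrix protein. Timp proteins bind the active site of these enzymes, and in pancreatic cancer, which is known for its dense stroma, both fibroblasts and cancer cells can produce all 3 families.

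Each value is a normalized read count, the reads of a gene after division by the size factor of its library. The libraries held 40781199 to 44972100 reads, so that 3 reads, taken here as the limit of detection, equal a value of 2.74 to 3.47. This limit covers counting error only, because reads without molecular identifiers are not independent molecules. *Krt19*, the edited gene, had values of 17841 to 27618 in sgScramble and 1606 to 2470 in sgKrt19 tumors (log2 fold change −3.52), as the labels give it. The tumors also differed in markers of other cells. The summed value of 8 skeletal muscle genes was 78.0, 89.9, 2153 and 119 in sgScramble replicates 1 to 4 and 19040 to 26212 in sgKrt19 tumors, and 8 of 8 were higher in sgKrt19. The summed value of 10 fibroblast genes was 116321, 144118, 172124 and 266383 in sgScramble and 126969 to 149172 in sgKrt19, and 0 of 10 were called by limma (1 at an unadjusted p under 0.05; 1 by edgeR and 2 by DESeq2). Macrophage markers summed to 19193 to 26571 in sgScramble and 25764 to 31312 in sgKrt19, with 5 of 10 higher and 1 lower. Endothelial markers summed to 3399 to 4967 and 5111 to 6229 (3 of 7 higher), and epithelial markers to 117358 to 158704 and 238030 to 247450 (3 of 7 higher). The epithelial sum was mostly that of *Krt8*, *Krt18* and *Cdh1*, the 3 genes called. The others went both ways and were not called: *Epcam* (log2 fold change 0.06), *Cldn7* (0.47), *Krt7* (−1.03) and *Cldn4* (−1.23). Neutrophil markers summed to 373 to 544 and 1073 to 1163 (5 of the 5 tested of 9 listed, higher). Markers listed for leukocytes in general, among them *Ptprc* and *Itgax*, summed to 1788 to 2589 and 4390 to 6520 (4 of the 5 tested of 6 listed, higher). Skin markers summed to 188 to 271 and 224 to 290 (1 higher and 1 lower of 4 tested), and adipocyte markers to 443 to 2718 and 1176 to 2383 (0 of 4 tested called by limma, 1 at an unadjusted p under 0.05, 0 by edgeR and 0 by DESeq2). No marker of these lists was at 0 in every library. In bulk tissue, fewer cells of a type and less RNA per cell cannot be told apart, and the part of these cells in any result below was not tested.

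In the genome (GRCm38), 9 of the *Mmp* genes lie within 427.1 kb of chromosome 9, at chr9:7272514-7699585, and the other members are spread over many chromosomes. *Adamts1* and *Adamts5* are neighbors on chromosome 16 with 53.1 kb between them, and *Adamts15* and *Adamts8* are neighbors on chromosome 9 with 20.1 kb between them. Promoter sequences of 300 bases (250 before and 50 after a RefSeq start, GRCm38.p6) were given for 31 of the 44 genes. They were searched on both strands for TGAGTCA, the site of the AP-1 factors, and for TATAAA, the TATA box, and no matches of the 2 motifs overlap in the stretches shown. TGAGTCA was present in 7 of the 9 cluster genes (77.8%), in 0 of the 22 other members with a promoter and in 5.95% of all 27025 genes in the promoter table. TATAAA was present in 8 of the 9 cluster genes (88.9%), in 2 of the 22 others (*Mmp21* and *Adamts1*; 9.09%) and in 15.7% of all genes. The promoter stretches below are shown because most cluster genes hold this pair of motifs and none of the other members searched does. They run from shortly before the AP-1 letters to the TATA box, or to the start where none stands between, with both motifs in capitals. *Adamts1*, the most reduced *Adamts* gene tested, is added with its TATA box.

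*Mmp13*, chr9:7272467-7272511, + strand: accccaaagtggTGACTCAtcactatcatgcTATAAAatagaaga
*Mmp12*, chr9:7347318-7347373, + strand: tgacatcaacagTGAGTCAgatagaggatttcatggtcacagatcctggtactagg
*Mmp1b*, chr9:7388062-7388131, − strand: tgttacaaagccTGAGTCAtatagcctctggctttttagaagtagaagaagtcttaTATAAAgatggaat
*Mmp3*, chr9:7445764-7445821, + strand: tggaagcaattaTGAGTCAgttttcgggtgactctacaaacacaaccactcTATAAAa
*Mmp1a*, chr9:7464056-7464126, + strand: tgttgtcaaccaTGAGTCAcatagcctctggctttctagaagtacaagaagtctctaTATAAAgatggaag
*Mmp10*, chr9:7502267-7502326, + strand: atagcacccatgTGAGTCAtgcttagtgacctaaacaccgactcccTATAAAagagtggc
*Mmp7*, chr9:7692015-7692077, + strand: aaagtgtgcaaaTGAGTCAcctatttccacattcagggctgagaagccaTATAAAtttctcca
*Adamts1*, chr16:85803132-85803157, − strand: ctcctatgtggcTATAAAggggcggc

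In *Mmp13* the AP-1 letters are read on the opposite strand. In *Mmp12* the TATAAA letters lie after the RefSeq start, outside the stretch shown. The first AP-1 letter stands 35 to 93 bases before the start in these 7 genes, and in the 6 with TATAAA between it and the start it stands 19 to 45 bases before those letters. A match is a description of the letters and not a binding site.

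The limma test on log2(value + 1) took in genes that reached a value of 10 in 3 or more libraries, and a gene was called at an adjusted p under 0.05 over all 21322 genes tested. Of the 44 members, 34 were tested, and 11 of the 34 (32.4%) were called, against 34.0% of all genes tested. Of these 11, 2 were higher in sgKrt19 tumors (5.88%, against 17.9% of all genes) and 9 were lower (26.5%, against 16.0% of all genes). Among the 9, *Mmp16* passed the filter through its sgScramble values alone. Scaling by library size alone gave 2 members higher and 13 lower, and 2187 of all genes higher and 5705 lower, against 3820 and 3420 with the deposited scaling. The median log2 fold change was −0.22 for the 34 members and 0.01 for all genes tested. The share called among the members was thus near that of all genes. The directions were unevenly spread over the families: *Mmp* genes gave 2 higher and 1 lower of 17 tested (median −0.01), *Adamts* genes 0 higher and 6 lower of 14 (median −0.59) and *Timp* genes 0 higher and 2 lower of 3 (median −0.86). Groups did not overlap for 12 of the 34 members (35.3%) and for 41.1% of all genes tested.

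**Figure D1:**
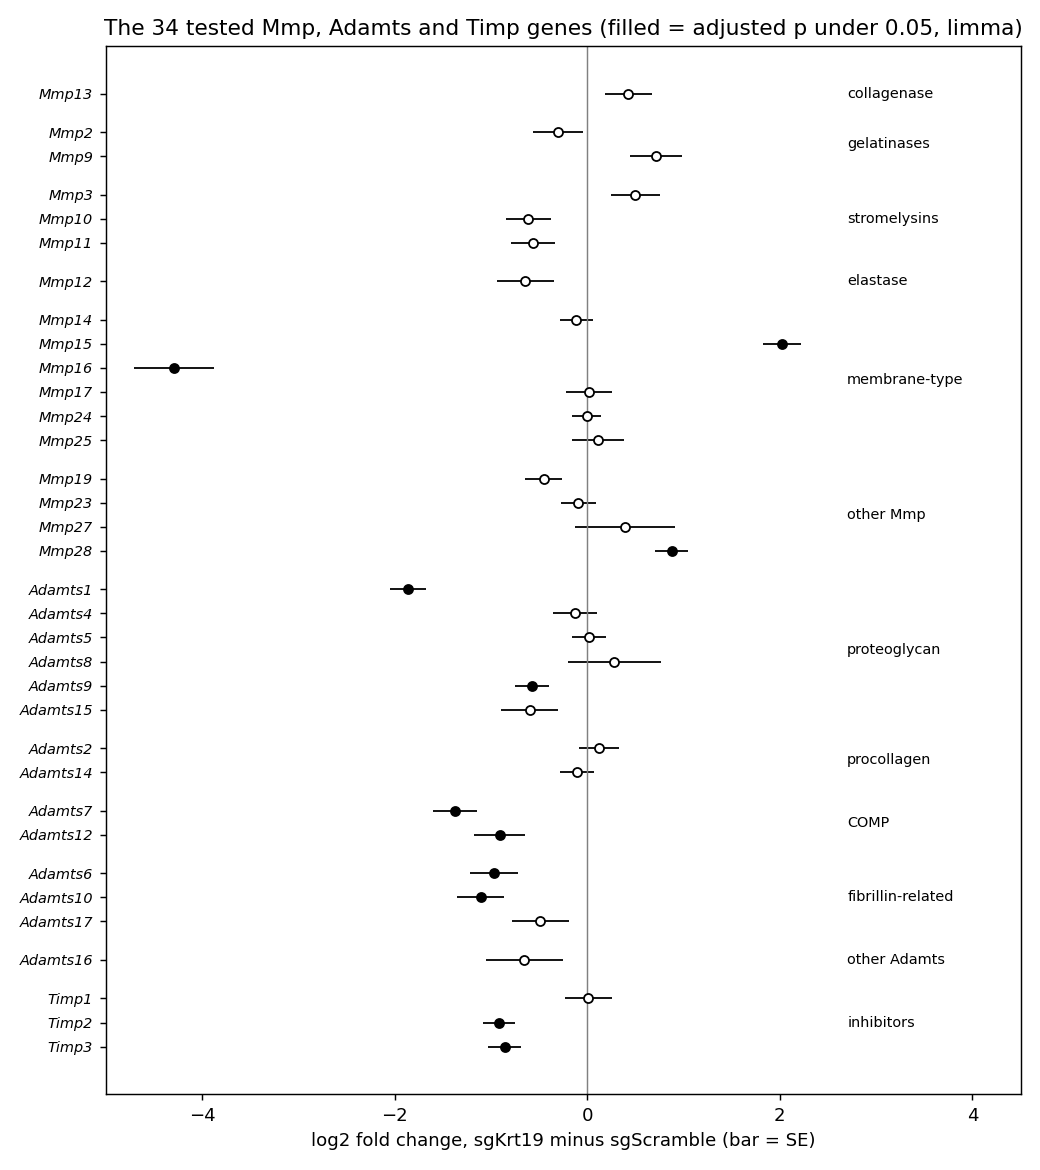
Log2 fold change (sgKrt19 minus sgScramble, on the log2(value + 1) scale) of the 34 tested genes by role, with the standard error as a bar and called genes filled. *Mmp15* (2.02) and *Mmp16* (−4.29) stand at the 2 ends, and the 6 filled *Adamts* and 2 filled *Timp* genes all lie left of 0.

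The membrane-type enzymes, which are tethered to the cell surface, held both extremes of the list. *Mmp15* (chr8:95352268-95375080) had values of 807, 783, 1411 and 933 in the sgScramble tumors and 3673, 3601 and 4435 in the sgKrt19 tumors. Every sgKrt19 tumor was above every sgScramble tumor, of which replicate 3 was the highest. That library also had the highest skeletal muscle, epithelial and skin marker sums of its group, and the part of these cells was not tested. The means were 983 ± 293 (SD, n = 4) and 3903 ± 462 (SD, n = 3), a 4.07-fold rise (log2 fold change 2.02 ± 0.19 SE, adjusted p = 9.44e-05 by limma).

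*Mmp16* (chr4:17852893-18119145) was scarce in both groups. Its values were 22.3, 19.8, 27.4 and 28.8 in sgScramble tumors, from 20 to 31 reads each, and 1.16, 0 and 0 in sgKrt19 tumors. All 3 sgKrt19 tumors were thus under the limit of detection, and together they held 1 read against 105 in sgScramble. The ratio of the groups was 69.4, with an exact 95% interval for counting error only of 12.2 to 2767. The limma log2 fold change was −4.29 ± 0.41 SE (adjusted p = 9.78e-05), a value that depends on the pseudocount (−5.70 by edgeR). *Mmp16* passed the filter through its sgScramble values alone, so that it could enter the test only as a gene lower in sgKrt19.

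*Mmp14* (chr14:54431612-54445364), the activator of pro-Mmp2 at the cell surface, was the most abundant protease of the list per kb of exon. Its values were 11349, 12345, 15188 and 15356 in sgScramble and 15995, 11568 and 10382 in sgKrt19 tumors. The groups overlapped over most of their range, and the gene was not called (log2 fold change −0.11 ± 0.17 SE, adjusted p = 0.634 by limma). *Mmp17* (0.02), *Mmp24* (−0.01) and *Mmp25* (0.11), the other membrane-type genes tested, gave log2 fold changes close to 0 and were not called. Within a library the value of *Mmp15* relative to that of *Mmp14* was 0.0608 to 0.0929 in sgScramble and 0.230 to 0.427 in sgKrt19 tumors. This ratio sets a called gene over one that was not called and is no separate result.

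*Mmp28* (chr11:83440768-83463071), also called epilysin and known from epithelia, was the other gene that rose. It had values of 619, 854, 628 and 616 in sgScramble and 980, 1299 and 1487 in sgKrt19 tumors. The groups did not overlap, and sgScramble replicate 2 stood above the other 3 of its group. The rise was 1.84-fold (log2 fold change 0.88 ± 0.17 SE, adjusted p = 0.00388 by limma). An opposite-strand gene, *1700020L24Rik*, shares 12.0% of its exon bases, and although the kit named by the study keeps strand, whether the counting used it is not given in the sources used here.

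Collagenases, gelatinases, stromelysins and the elastase were not called by limma. At an unadjusted p under 0.05 stood 1 of the 2 gelatinases and 2 of the 3 stromelysins, and edgeR called 0 and DESeq2 1 of these genes. *Mmp13*, the main interstitial collagenase of the mouse, ranged from 1511 to 2627 in sgScramble and from 1855 to 3657 in sgKrt19 (log2 fold change 0.42, adjusted p = 0.198 by limma). The gelatinase *Mmp2* ranged from 1670 to 3753 and from 1831 to 2091 (−0.30, adjusted p = 0.379). The other gelatinase, *Mmp9*, which is abundant in neutrophils and macrophages, had values of 938, 372, 863 and 688 in sgScramble and 1058, 1195 and 1069 in sgKrt19 tumors. The groups did not overlap, but sgScramble replicates 1 and 3 came close to sgKrt19, and the difference missed the threshold (0.71 ± 0.27 SE, adjusted p = 0.0651 by limma). It passed when sgScramble replicate 1 (adjusted p = 0.0320) or replicate 3 (0.0445) was left out. As given above, the summed neutrophil markers were higher in all 3 sgKrt19 tumors, whereas the macrophage sums overlapped (19193 to 26571 in sgScramble and 25764 to 31312 in sgKrt19). The part of either cell type in the *Mmp9* values was not tested.

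Among stromelysins, *Mmp3* gave a log2 fold change of 0.50 (adjusted p = 0.153 by limma), *Mmp10* −0.61 (0.0716) and *Mmp11* −0.56 (0.0770). *Mmp10* was called by DESeq2 (adjusted p = 0.0407) and not by edgeR or limma. *Mmp12*, the macrophage elastase, gave −0.64 (0.114) and *Mmp19* −0.45 (0.0963). *Mmp23* (−0.09) and *Mmp27* (0.39, from values of 3.95 to 19.5) were not called either. Of *Mmp11*, *Mmp19* and *Mmp24*, 5.58% to 22.3% of exon bases are shared with an opposite-strand gene.

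The chromosome 9 cluster, in which 7 of 9 genes hold the AP-1 letters, had log2 fold changes of both signs among its tested genes. Of its 9 genes 5 were tested, and 0 were called by limma (1 at an unadjusted p under 0.05, 0 by edgeR and 1 by DESeq2), against 34.0% of all genes tested. With 5 genes, this count is too small to set the cluster apart from all genes. Their log2 fold changes ran from −0.64 (*Mmp12*) to 0.50 (*Mmp3*). The median of 0.39 is the value of *Mmp27*, which holds neither motif and had values of 3.95 to 19.5. A filter at 50 left only *Mmp13*, *Mmp12*, *Mmp3* and *Mmp10*, all with AP-1 letters, and a median of −0.0925. The 12 tested *Mmp* genes elsewhere gave 2 higher and 1 lower, with a median of −0.05. *Mmp13*, *Mmp12*, *Mmp3* and *Mmp10* had values of at least 198 in every library, whereas *Mmp20*, whose product is the enamel protease, had no read in any of the 7, and *Mmp1a*, annotated as a polymorphic pseudogene, and *Mmp1b* had at most 3 reads in a library. The cluster thus held some of the highest and the lowest levels of the family, and the 2 *Mmp1* genes at its low end carry both the AP-1 letters and the TATA box, as *Mmp13*, *Mmp3* and *Mmp10* do.

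**Figure D2:**
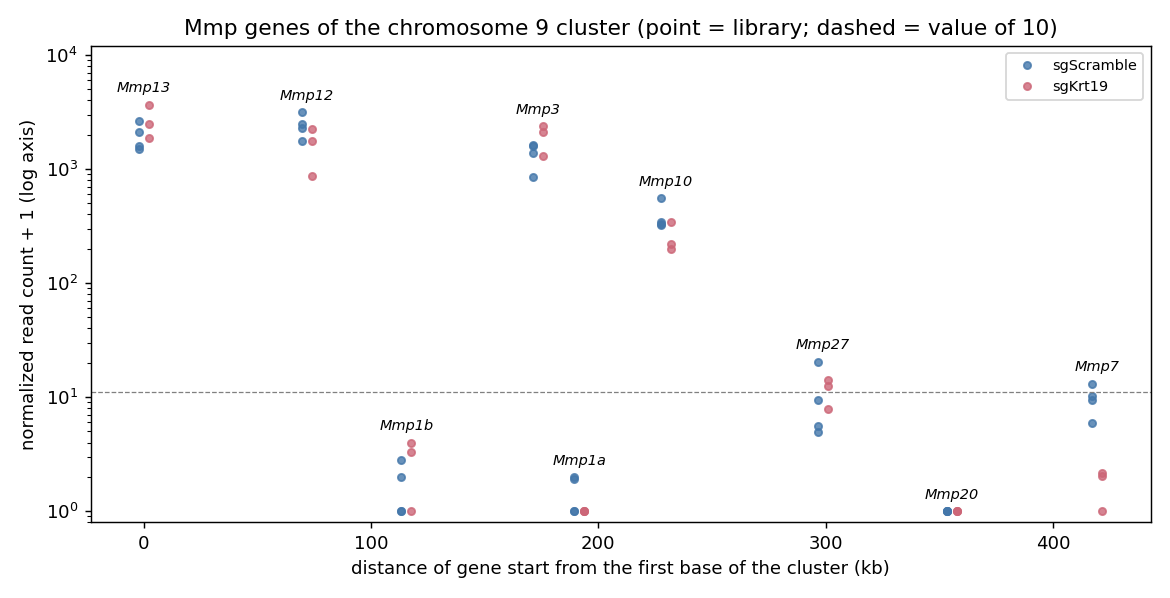
Normalized read count + 1 (log axis) of the 9 chromosome 9 *Mmp* genes in each library, against the distance of the gene start from the first base of the cluster in kb. The points of both groups overlap for the 4 abundant genes, and *Mmp7* is the gene whose sgKrt19 points, at 1.16, 0 and 1.05, all lie below its sgScramble points.

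Some genes too low to be tested are singled out here after their values were seen. Ratios with an interval, here and for *Mmp16*, were computed only for genes with few reads in sgKrt19 and more in sgScramble. A ratio above 1 thus followed from this choice. *Mmp7*, or matrilysin, an epithelial protease, failed the filter, with 13, 5, 10 and 9 reads in sgScramble and 1, 0 and 1 in sgKrt19 tumors. The ratio of the groups was 12.2, with an exact 95% interval for counting error of 3.15 to 105. *Adamts3*, a procollagen processing enzyme, likewise failed it, with 8, 7, 8 and 6 reads in sgScramble and 0, 1 and 0 in sgKrt19 tumors (ratio 19.2, interval 3.18 to 783). In the opposite direction, *Adamts20* had values of 2.78 to 4.94 in sgScramble and 5.25 to 10.0 in sgKrt19, and no ratio or interval was computed for it. The remaining untested members were *Mmp1a*, *Mmp1b*, *Mmp20*, *Mmp21*, *Adamts13*, *Adamts18* and *Timp4*, and all of these but *Timp4* had at most 3 reads in any library.

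*Adamts* genes gave 6 calls of 14 tested (42.9%), all lower, against 34.0% of all genes called and 16.0% called lower. No other *Adamts* gene had an unadjusted p under 0.05 (edgeR and DESeq2 also called 6). The calls of *Adamts9*, *Adamts12* and *Adamts6* were lost when certain single libraries were left out, as given below. *Adamts1* (chr16:85793827-85803113), a versican-cleaving protease and the most abundant *Adamts* gene per kb in both groups, had values of 2748, 3991, 3037 and 3868 in sgScramble and 1188, 942 and 711 in sgKrt19 tumors. The lowest sgScramble tumor was above the highest sgKrt19 tumor by a wide margin. Expression fell 3.63-fold (log2 fold change −1.86 ± 0.19 SE, adjusted p = 0.00013 by limma).

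*Adamts5*, its neighbor on chromosome 16 and an aggrecanase, did not follow it. Its values were 163 to 227 in sgScramble and 181 to 240 in sgKrt19 tumors (log2 fold change 0.02 ± 0.17 SE, adjusted p = 0.94 by limma). The value of *Adamts1* relative to that of *Adamts5* was 13.1, 24.5, 13.4 and 17.7 in sgScramble and 4.94, 5.20 and 3.56 in sgKrt19 tumors. The ratio within each library does not depend on the scaling between libraries, and it did not overlap between the groups. It sets a called gene over one that was not called and is no separate result.

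Of the other proteoglycan-cleaving members, *Adamts9* fell by 0.57 on the log2 scale (values of 1021 to 1661 against 802 to 964, adjusted p = 0.0332 by limma). This call was lost when any one of sgScramble replicates 2 and 4 or sgKrt19 replicates 5, 6 and 8 was left out (adjusted p = 0.0508 to 0.105). *Adamts9* also shares 9.18% of its exon bases with the opposite-strand gene *A730049H05Rik*. *Adamts4* (−0.13), *Adamts8* (0.28, from values of 3.72 to 17.4) and *Adamts15* (−0.60, adjusted p = 0.143) were not called.

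Both enzymes that cleave cartilage oligomeric matrix protein (COMP) fell. *Adamts7* (chr9:90163069-90208071) had values of 385, 617, 676 and 851 in sgScramble and 239, 230 and 234 in sgKrt19 tumors. The sgKrt19 values lay within a far narrower range than those of sgScramble, and below all of them. The log2 fold change was −1.37 ± 0.23 SE (2.59-fold lower, adjusted p = 0.0017 by limma). *Adamts12* ranged from 484 to 1220.5 and from 333 to 422 (log2 fold change −0.91 ± 0.26 SE, adjusted p = 0.0242), and its call was lost without sgKrt19 replicate 5 (adjusted p = 0.0528) or 8 (0.0826).

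Of the 3 fibrillin-related enzymes, which take part in microfibril assembly, 2 fell. *Adamts10* (chr17:33524204-33553782) had values of 669, 1104, 1106 and 1365 in sgScramble and 388, 436 and 640 in sgKrt19 tumors. The highest sgKrt19 tumor, replicate 8, came close to the lowest sgScramble tumor, replicate 1, but the groups did not overlap. The log2 fold change was −1.11 ± 0.24 SE (2.15-fold lower, adjusted p = 0.00717 by limma). *Adamts6* ranged from 325 to 639 and from 201 to 272 (−0.97 ± 0.25 SE, adjusted p = 0.0147), a call lost without sgKrt19 replicate 8 (adjusted p = 0.0558). *Adamts17* gave −0.49 (adjusted p = 0.223) and was not called, like *Adamts16* (−0.66, adjusted p = 0.223), which belongs to none of these groups.

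The procollagen-processing enzymes *Adamts2* and *Adamts14*, which remove the amino-terminal propeptide of fibrillar collagens, were not called (0 at an unadjusted p under 0.05, and 0 by edgeR and by DESeq2). *Adamts2* ranged from 734 to 1389 in sgScramble and from 1027 to 1057 in sgKrt19 (log2 fold change 0.12 ± 0.21 SE, adjusted p = 0.659 by limma), and *Adamts14* gave −0.11 (0.668). Summed over the 18 genes, the *Adamts* value per kb of exon was 1051 to 1751 in sgScramble and 630 to 732 in sgKrt19 tumors. *Adamts1* made up 41.7% to 51.3% of that sum in sgScramble and 21.3% to 30.6% in sgKrt19.

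**Figure D3:**
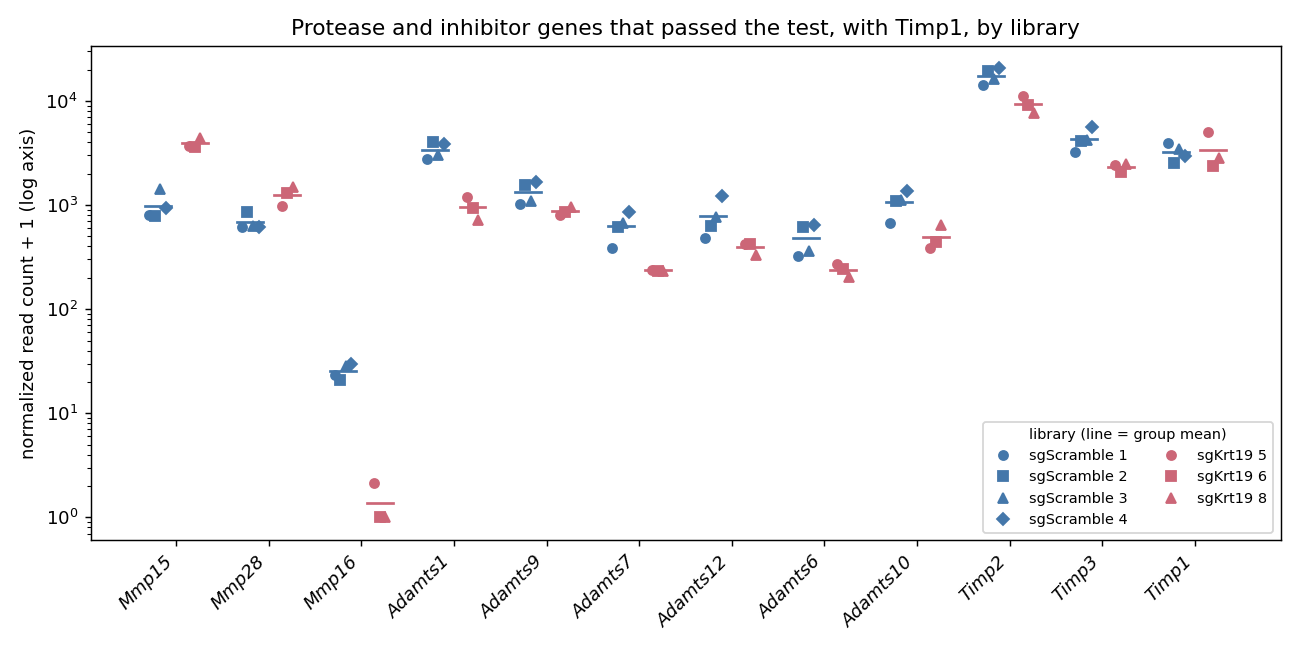
Normalized read count + 1 (log axis) in each library for the 11 called genes and *Timp1*, with 1 symbol per library and a line at each group mean. For the 11 called genes the 2 groups do not overlap, and for *Timp1* they do.

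The inhibitors were among the most abundant members. *Timp2* (chr11:118301069-118355740), which blocks Mmp2 and also takes part in its activation by Mmp14, had values of 14105, 19284, 16275 and 20547 in sgScramble and 11172, 9129 and 7662 in sgKrt19 tumors. Every sgKrt19 tumor was below every sgScramble tumor. Expression fell 1.89-fold (log2 fold change −0.91 ± 0.17 SE, adjusted p = 0.00302 by limma).

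*Timp3* (chr10:86300372-86349506), the inhibitor that binds to the matrix and also blocks ADAMTS enzymes, had values of 3234, 4113, 4173 and 5603 in sgScramble and 2415, 2074 and 2482 in sgKrt19 tumors. The groups did not overlap, and the fall was 1.81-fold (log2 fold change −0.86 ± 0.17 SE, adjusted p = 0.004 by limma). An opposite-strand gene, *Syn3*, shares 21.3% of its exon bases.

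*Timp1* (chrX:20870166-20874735), a secreted inhibitor of most soluble Mmp proteins, had values of 3984, 2511, 3470 and 2955 in sgScramble and 4988, 2358 and 2810 in sgKrt19 tumors. sgKrt19 replicate 5 was the highest and replicate 6 the lowest of all 7, so that the groups overlapped over their whole range (log2 fold change 0.01 ± 0.24 SE, adjusted p = 0.974 by limma). *Timp4*, which is known mainly from heart and fat, had values of 1.86, 0.99, 4.57 and 5.56 in sgScramble and 4.62, 5.0 and 4.20 in sgKrt19 tumors. These lie at or near the limit of detection, and the gene was not tested.

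Compared per kb of exon, the order of levels changed between the groups. In sgScramble tumors the mean value per kb was highest for *Timp2* (4505), followed by *Timp1* (3637), *Mmp14* (2275), *Mmp3* (757), *Mmp2* (744), *Mmp13* (730) and *Adamts1* (643). In sgKrt19 tumors it was highest for *Timp1* (3813), followed by *Timp2* (2392), *Mmp14* (2122), *Mmp3* (1072), *Mmp13* (994) and *Mmp15* (723). *Mmp15* moved from rank 14 to rank 6 of the 44 genes, *Mmp28* from 15 to 8 and *Adamts1* from 7 to 14. Several neighbors in these orders lay within their spread of each other, such as *Mmp3*, *Mmp2* and *Mmp13* in sgScramble, with SDs of 200, 297 and 195 per kb. *Timp1* was above *Timp2* per kb in all 3 sgKrt19 tumors and also in sgScramble replicate 1, where they made up 52.8% and 42.6% of the *Timp* sum.

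A balance between inhibitors and *Mmp* proteases was computed within each library as the *Timp* sum over the *Mmp* sum, both per kb. It was 1.31, 1.44, 1.27 and 1.24 in sgScramble and 1.02, 0.843 and 0.777 in sgKrt19 tumors. The groups did not overlap, and sgKrt19 replicate 5, with the highest *Timp1* value, came closest to sgScramble. With the *Adamts* genes added to the *Mmp* sum, the ratio was 1.005 to 1.15 in sgScramble and 0.713 to 0.938 in sgKrt19 tumors. The groups then lay closer together but still did not overlap. The value of *Timp2* relative to that of *Mmp14* was 1.07 to 1.56 in sgScramble and 0.698 to 0.789 in sgKrt19 tumors. *Timp2* was called and *Mmp14* was not, so that this ratio is no separate result. The sums themselves overlapped, for *Mmp* (5738 to 7496 and 6229 to 8634) as for *Timp* (8282 to 9290 and 5254 to 8782). These ratios describe RNA and were not tested.

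**Figure D4:**
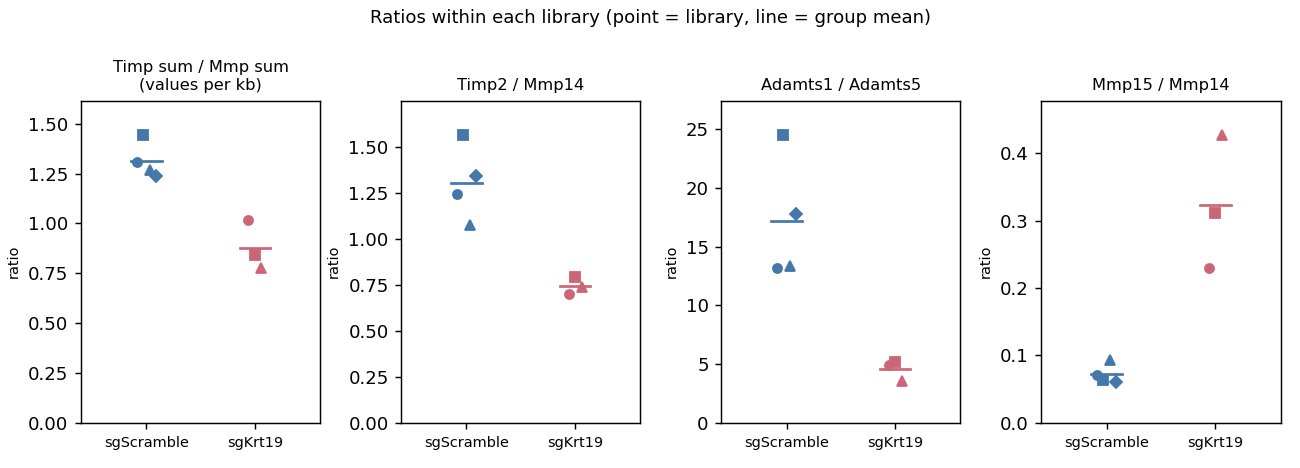
Ratios computed within each library (points, with the group mean as a line; each axis starts at 0). The *Timp* to *Mmp*, *Timp2* to *Mmp14* and *Adamts1* to *Adamts5* ratios lie lower in all 3 sgKrt19 tumors than in all 4 sgScramble tumors, and the *Mmp15* to *Mmp14* ratio lies higher. The ratios of single genes each set a called gene over one that was not called.

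Within sgScramble the *Adamts* and *Mmp* genes were not highest and lowest in the same libraries. sgScramble replicate 4 was the highest of its group for 11 of the 14 tested *Adamts* genes, and sgScramble replicate 1 was the lowest for 11 of 14. Replicate 4 had the highest summed fibroblast markers of its group. It also had the highest macrophage, endothelial, neutrophil and leukocyte sums and the lowest epithelial and skin sums. Replicate 1 had the lowest fibroblast, endothelial and skeletal muscle sums of its group. The part of any of these cells was not tested. Of the 17 tested *Mmp* genes, 7 were highest in replicate 1 and 6 in replicate 4, and 10 were lowest in replicate 2. Over all 34 tested members sgScramble replicate 4 was the highest of its group for 19 and sgKrt19 replicate 5 for 20. Without sgScramble replicate 4 the members gave 10 calls, 8 of them lower.

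A list of 43 related genes covered activators, other inhibitors and clearance receptors, ADAM and ADAMTS-like relatives and matrix substrates. Of these 41 were tested and 14 were called (34.1%), against 34.0% of all genes tested. The 14 comprised 5 higher (12.2%, against 17.9% of all genes) and 9 lower (22.0%, against 16.0%). Scaling by library size alone gave 3 higher and 15 lower. The median log2 fold change was −0.16. In each group of the list 33.3% to 35.7% of the genes tested were called, also near the share of all genes. Without sgScramble replicate 4, 5 in place of 9 were lower. Activators, inhibitors and clearance genes gave 1 higher and 3 lower of 12, and the largest change was that of *Pcsk5*, a proprotein convertase (−1.09, adjusted p = 0.013 by limma). ADAM relatives gave 3 higher and 0 lower of 9, led by *Adam28* (2.67, adjusted p = 0.000576), which is known from lymphocytes, and *Adamdec1* (1.57, adjusted p = 0.00191), which is known from macrophages. ADAMTS-like genes gave 0 higher and 2 lower of 6, with *Papln*, or papilin, at −2.87 (adjusted p = 0.000404).

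Substrates gave 1 higher and 4 lower of 14. *Vcan*, the proteoglycan versican and a substrate of Adamts1, had values of 2015, 2997, 2103 and 3593 in sgScramble and 1229, 941 and 739 in sgKrt19 tumors (log2 fold change −1.45, adjusted p = 0.00121 by limma). *Comp*, the substrate of Adamts7 and Adamts12, had values of 104, 78.1, 207 and 108 in sgScramble and 10.4, 17.0 and 36.8 in sgKrt19 tumors (−2.56, adjusted p = 0.00171). *Acan*, the proteoglycan aggrecan, was not called (−0.72, adjusted p = 0.111 by limma). *Vcan* and *Comp* were lower in the same 3 tumors as their proteases. This follows from calls made between the same groups and does not link a substrate to its protease. *Fn1*, fibronectin, fell as well (−1.28, adjusted p = 0.00424 by limma). So did *Col2a1*, the cartilage collagen, with values of 8.89 to 28.3 in sgScramble and 0 to 1.16 in sgKrt19 tumors (adjusted p = 0.000921 by limma). *Col2a1* passed the filter through its sgScramble values alone. *Eln*, the elastin gene, was the substrate that rose, from 211 to 725 in sgScramble to 1150 to 1774 in sgKrt19 (log2 fold change 2.04, adjusted p = 0.00208). The skeletal muscle, leukocyte and fibroblast marker values given at the start stand beside these changes too.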

How the data were processed

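The authors deposited 1 table of 38026 genes for 7 libraries of 76-base single reads, whose values are a signal: reads per gene divided by a size factor for each library. The labels give poly(A) RNA, whereas the study's methods name a stranded total RNA kit. The submitters' processing notes name build mm10, and the aligner and counter are not given in the sources used here. Whole reads were recovered for 100% of values (tolerance 0.1 read).

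Genes that reached a value of 10 in 3 or more libraries were fitted by limma 3.58.1 (R 4.3.3) on log2(value + 1) with the group as the only term, with Benjamini-Hochberg adjustment over all genes tested and a threshold of 0.05. Fold changes are on this scale, which understates changes of low genes. edgeR 4.0.16 (quasi-likelihood) and DESeq2 1.42.0 were run on the recovered reads as alternatives, and other scalings, pseudocounts, filters and left-out libraries were tried. Scripts were tested on simulated data. Positions and exon lengths came from GENCODE M21 (GRCm38; 37167 identifiers matched). Values in every library are given for called genes whose log2 fold change was 1 or more in size, for *Timp* genes and for the 3 highest per kb; of the related genes called genes of that size are named. Members and lists were chosen with earlier results of these data known. One *Mmp* gene and 1 allele of the line are not reported here.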

Additional observations from a re-analysis of the deposited data

Results flagged for a closer look

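In the 4 sgScramble libraries, the highest value of each of the 34 tested members was compared with the rest by Dixon's ratio, as was the lowest, and 2 genes (5.88%) had a sample far from the others; chance gives about 1 in 20. *Mmp10* was 550.8 in sgScramble replicate 1, against 323 to 342 in the other 3. *Mmp28* was 853.7 in sgScramble replicate 2, against 616 to 628 in the other 3.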

How the results depend on the processing

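No paired analysis was possible because the groups share no replicate number. Of the alternatives to the values of called members, 160 kept direction and call, 15 lost the call and 0 changed direction. A test for a fold above 1.5 left 1336 genes (728 higher, 608 lower), of them 4 members (1 higher and 3 lower: *Mmp15*, *Mmp16*, *Adamts1* and *Adamts7*) and 7 related genes (3 higher, 4 lower), since it asks for a larger change. Scaling by library size alone moved the median of all genes by −0.21, which gave 2187 genes higher and 5705 lower, 3 related genes higher and 15 lower, and medians of −0.43 (all members), −0.22 (*Mmp*), −1.07 (*Timp*), −0.20 (membrane-type), −0.053 (other *Mmp*) and −0.27 (*Mmp* outside the cluster). Without a filter the medians were −0.42 (*Timp*), −0.092 (other *Mmp*) and −0.047 (cluster), and with a filter at 50 they were −0.0924 (other *Mmp*) and −0.0925 (cluster), since other genes were tested. Leaving out 1 library gave 4861 to 7714 genes called (2481 to 4103 higher, 2232 to 3611 lower), 8 to 13 members (2 to 3 higher, 6 to 10 lower), 10 to 16 related genes (4 to 5 higher, 5 to 11 lower), and medians of −0.43 to −0.076 (all members) and −0.13 to 0.22 (other *Mmp*). The lowest count of higher genes was without sgKrt19 replicate 5, the lowest count of lower genes without sgScramble replicate 2, and 8 members were called without sgKrt19 replicate 8.

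Among genes that were not called, 12 values gained a call. Besides the 3 given above for *Mmp9* and *Mmp10*, these were *Mmp10* (adjusted p = 0.0131), *Mmp11* (0.0157), *Mmp12* (0.0317) and *Mmp19* (0.0237) with scaling by library size, *Mmp10* (0.0292), *Mmp11* (0.00556) and *Mmp12* (0.0463) without sgKrt19 replicate 5, *Mmp3* (0.0462) without sgKrt19 replicate 6 and *Mmp11* (0.0461) without sgScramble replicate 1, all by limma. Another 22 values changed sign. With scaling by library size these were *Mmp17* (−0.19), *Adamts2* (−0.091), *Adamts5* (−0.20), *Mmp25* (−0.10) and *Timp1* (−0.20), and with TMM scaling *Timp1* (−0.0019). With 1 library left out the ranges were −0.27 to 0.062 (*Adamts4*), −0.13 to 0.096 (*Mmp24*), −0.20 to 0.033 (*Mmp23*), −0.022 to 0.053 (*Mmp17*), −0.058 to 0.60 (*Adamts8*), −0.18 to 0.0069 (*Adamts14*), −0.29 to 0.017 (*Mmp14*), −0.093 to 0.11 (*Adamts5*), −0.027 to 0.34 (*Mmp25*) and −0.31 to 0.23 (*Timp1*). The causes were not tested. Depth limits *Mmp7*, *Mmp16* and *Adamts3*, with 0 or 1 read in each sgKrt19 library.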
